A study of Mus musculus with 4 samples.

Results

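A set of 9 genes that restrain mitogen-activated protein kinase (MAP kinase) signalling are described here, 7 dual-specificity phosphatases (Dusp1, Dusp2, Dusp4, Dusp5, Dusp6, Dusp10 and Dusp14) and 2 Sprouty genes (Spry1 and Spry2). They were taken by symbol from a table of 24061 genes, and all 9 were found in it and passed the filter on low counts, which 13022 genes passed. The cells were regulatory T cells of effector type (CD4+FoxP3+CD62L-) sorted from the Peyer's patches of 13-week-old mice on a C57BL/6 background of backcross generation 5. All mice carried FoxP3-YFP-cre, in which the Foxp3 gene drives both Cre and a yellow fluorescent protein, so that Cre acts in cells that express Foxp3. Of the 4 libraries, 2 are labelled Maf+/+ (wt 1 and wt 2) and 2 are labelled Mafflox/flox (flox 1 and flox 2), each from about 40000 cells. How many mice gave each sample, and whether libraries of 1 group came from separate mice, is not said in the labels, so the p-values reflect how these samples varied among themselves, which may be technical.

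MAP kinases carry signals from the T cell receptor and from growth factor and cytokine receptors to the nucleus. They are switched on by phosphorylation of a threonine and a tyrosine, and the MAP kinase phosphatases remove both phosphates. Several of these phosphatases are themselves induced by the signal and so close a negative feedback loop, and Sprouty proteins act further upstream, where they dampen the path from receptors through Ras to the kinase ERK. In T cells such feedback genes are known as responses to antigen receptor signalling.

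The library labels and the targeted gene were at odds. Maf, the transcription factor gene that Cre is meant to delete in floxed cells, had 149 and 1.98 CPM (counts scaled to TMM library sizes) in the libraries labelled wt 1 and wt 2. In the libraries labelled flox 1 and flox 2 it had 122 and 0.725 CPM. Maf was thus high in both libraries numbered 1 and low in both numbered 2, whatever the genotype label. Il10 followed the same split, with 429, 24.5, 385 and 26.8 CPM in the order wt 1, wt 2, flox 1, flox 2, which is the order of all lists of 4 values here. The authors' filtered and normalized table matched values recomputed with the 2 libraries of each number as a group (100% within a relative error of 1e-06) and not with the labelled groups (3.25%). Libraries are called by their labels throughout, and a difference between labels does not stand for a difference in measured Maf. Gene totals were 19368745 to 24687897 counts per library. The markers of the sorted cells were present in every library, with 91.0 to 103.6 CPM for Foxp3 and 920 to 998 for Cd4. Summed levels of 13 tested epithelial markers were 224, 507, 500.2 and 368 CPM, of 8 B and plasma cell markers 77.9, 91.0, 131 and 70.9, of 11 myeloid markers 13.9, 65.0, 103 and 58.0, of 6 CD8 T and natural killer markers 103, 504, 282 and 312, and of 3 stromal and endothelial markers 75.4, 85.0, 79.8 and 67.1. In each library the largest term of the CD8 T and natural killer sum was Gzma, with 48.5, 419.5, 221 and 210 CPM. That of the stromal and endothelial sum was Pecam1, with 74.3, 82.7, 77.4 and 63.9 CPM. The myeloid genes Csf1r and Cd14 were at 0 in the library labelled wt 1. In sorted bulk RNA, fewer cells with a transcript and less of it in each cell cannot be told apart.

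The 9 genes were chosen with the values of these libraries in view, by their levels in both libraries numbered 1 against both numbered 2, and Dusp14 by its levels in the labelled genotypes. Differences by number are therefore described and not tested. Dusp14 was part of the test between labels, but its result there is given as a description only.

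A group of 4 genes, Dusp1, Dusp2, Dusp5 and Spry1, lay higher in both libraries numbered 1 than in both numbered 2. The DNA just upstream of their RefSeq start sites (GRCm38.p6) is shown for these 4, since they share this pattern. Each stretch ends where the exons of protein-coding transcripts begin. Capitals mark matches, on either strand, to 4 motifs that were searched in the 250 bases before the start: the Maf half-site TGCTGA, the cyclic AMP response element TGACGTCA, the AP-1 site TGANTCA, and the CArG box of serum response factor. The stretches are chr17:26508520-26508722 (minus strand) for Dusp1, chr2:127335909-127336158 (plus strand) for Dusp2, chr19:53528895-53529108 (plus strand) for Dusp5 and chr3:37639697-37639946 (plus strand) for Spry1.
Dusp1: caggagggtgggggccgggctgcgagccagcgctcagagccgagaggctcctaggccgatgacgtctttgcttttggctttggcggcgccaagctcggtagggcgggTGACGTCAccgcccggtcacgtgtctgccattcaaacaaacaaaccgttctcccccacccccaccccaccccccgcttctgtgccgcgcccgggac
Dusp2: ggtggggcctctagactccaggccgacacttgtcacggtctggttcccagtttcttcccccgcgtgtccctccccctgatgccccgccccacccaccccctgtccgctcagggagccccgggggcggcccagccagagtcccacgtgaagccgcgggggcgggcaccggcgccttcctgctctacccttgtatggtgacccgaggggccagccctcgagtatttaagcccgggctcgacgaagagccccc
Dusp5: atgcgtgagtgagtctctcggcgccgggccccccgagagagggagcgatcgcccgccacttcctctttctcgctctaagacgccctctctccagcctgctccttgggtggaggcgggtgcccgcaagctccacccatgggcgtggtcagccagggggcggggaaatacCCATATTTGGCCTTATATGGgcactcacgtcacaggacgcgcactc
Spry1: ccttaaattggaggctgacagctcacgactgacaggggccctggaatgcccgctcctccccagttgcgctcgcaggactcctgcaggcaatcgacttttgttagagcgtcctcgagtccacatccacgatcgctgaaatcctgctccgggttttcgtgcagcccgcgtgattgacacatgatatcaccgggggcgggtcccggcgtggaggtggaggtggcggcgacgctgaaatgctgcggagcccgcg

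Dusp1 held 1 match to the cyclic AMP response element, 143 to 136 bases before its start, and 1.55% of 32851 promoter windows of the same length held that motif. Dusp5 held 2 adjoining CArG boxes, 82 to 73 and 72 to 63 bases before its start, and 1.47% of windows held at least 1. The Maf half-site was in 16.1% of all windows and the AP-1 site in 6.75%, and neither was in the windows of the 8 genes that had one (Dusp1, Dusp2, Dusp5, Dusp6, Dusp10, Dusp14, Spry1 and Spry2). Dusp2 and Spry1, which had the same pattern across libraries, matched none of the 4 motifs in this window. A match in these letters is a description of the sequence, not of a bound site.

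**Figure D1:**
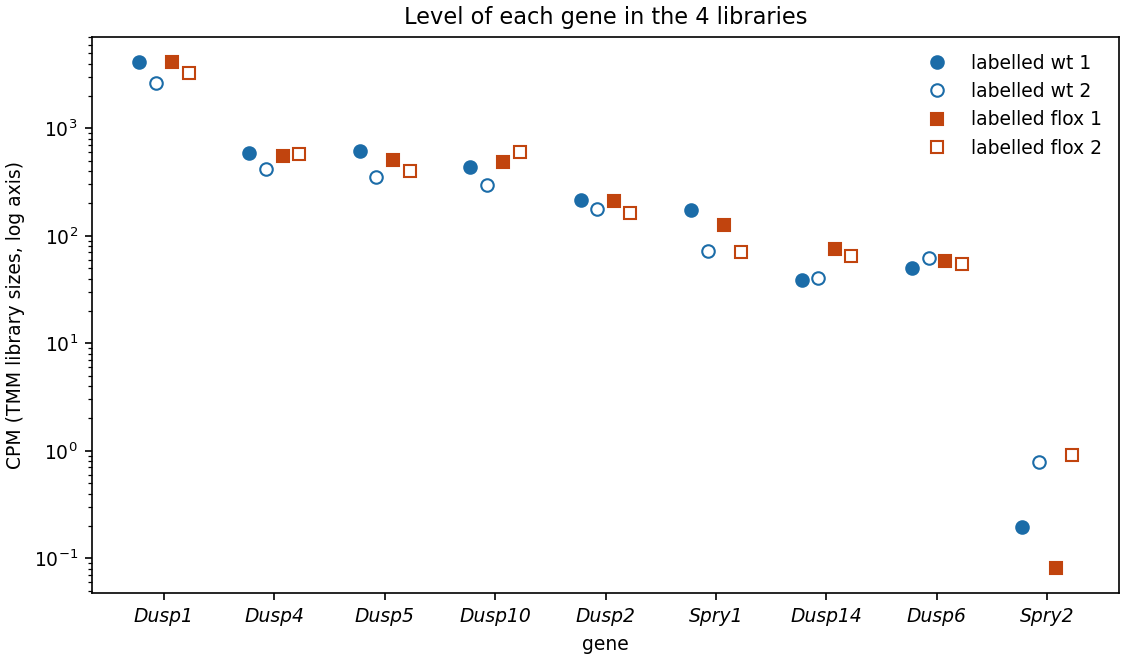
Level of each gene in CPM (log axis) in the 4 libraries, with genes ordered by their mean level per kilobase; circles are libraries labelled wt, squares libraries labelled flox, filled symbols number 1 and open symbols number 2. Dusp1 lay between 2650 and 4134 CPM, the filled symbols of Spry1 lay above the open ones, and both squares of Dusp14 lay above both circles.

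Per kilobase of annotated exon, Dusp1 was the most abundant of the genes, with a mean of 1068 CPM per kilobase (800.4 to 1249 over the libraries). Dusp4 (mean 194, range 152 to 213 CPM per kilobase), Dusp5 (189, 142 to 247) and Dusp10 (149.8, 96.7 to 199) followed, and their ranges overlapped. Dusp2 came next with 95.3 CPM per kilobase (81.6 to 107), a range that overlapped that of Dusp10. Below it lay Spry1 at 38.0 (24.1 to 60.0), Dusp14 at 28.0 (19.9 to 38.5) and Dusp6 at 18.0 (16.0 to 20.0), each overlapping its neighbour in this order. The range of Dusp1 lay apart from that of Dusp4, and that of Dusp2 from that of Spry1. Spry2 was near the limit of detection, with a mean of 0.238 CPM per kilobase, so that Spry1 was the Sprouty gene with ample counts.

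By number, 4 of the 9 genes were higher in both libraries numbered 1, where 22.5% of the 13022 tested genes were, and 1 was higher in both numbered 2, where 22.7% were (45.2% in either direction). The other 4 overlapped. Without either one of the libraries labelled flox, where 3 libraries separate more easily, 8 of the 9 were separate, beside 70% of all tested genes without flox 1 (34.5% higher in number 1 and 35.5% in number 2) and 75.2% without flox 2 (36.6% and 38.7%). Both within-label ratios reached 1.5-fold for Spry1 alone in the direction of number 1 (3.79% of all genes) and for Spry2 alone in the direction of number 2 (2.88%). The median log2 difference, number 1 minus number 2, was 0.21 over the 9 genes and -0.01 over all genes tested. Because the genes were chosen on this contrast, nothing is read from these counts.

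Among the nuclear, inducible phosphatases, Dusp1, which acts on the MAP kinases p38 and JNK as well as ERK, had 4134, 2650, 4097 and 3265 CPM. The libraries numbered 1 were nearly equal and both lay above those numbered 2. The ratio of number 1 to number 2 was 1.56 within labelled wt (95% counting interval 1.54 to 1.58) and 1.25 within labelled flox (1.24 to 1.27). The gap between these ratios exceeds counting error. The SD was 26.5 CPM between the libraries numbered 1 and 434.9 CPM between those numbered 2 (n = 2 each). Dusp5, a nuclear phosphatase specific for ERK, had 610.1, 350.4, 511.7 and 402 CPM, again without overlap by number. Its ratios were 1.74 within labelled wt (1.69 to 1.79) and 1.27 within labelled flox (1.24 to 1.31). Dusp2, a nuclear phosphatase first known from activated lymphocytes, had 214, 177, 209.5 and 164 CPM. Its ratios were the most alike of the 4 genes, 1.21 (1.16 to 1.26) and 1.28 (1.23 to 1.34). Dusp4, a nuclear relative of Dusp1, had 583, 416, 553 and 579 CPM and did not keep the split. The library labelled wt 2 alone was low, and within labelled flox the library numbered 2 was the higher one (ratio of number 1 to number 2 of 0.954, 0.931 to 0.978).

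Dusp6, the cytoplasmic phosphatase specific for ERK and a common readout of ERK activity, varied least of the 9 genes. It had 50.1, 62.8, 57.7 and 54.9 CPM, and the highest library was 1.25 times the lowest. Within labelled wt number 2 was the higher library (ratio of number 1 to number 2 of 0.798, 0.735 to 0.867), and within labelled flox the interval included 1 (1.05, 0.971 to 1.14). Dusp6 did not share the order of Dusp5, the other ERK-specific member.

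Dusp10, which prefers JNK and p38 over ERK, had 438, 294, 484 and 606 CPM. Both libraries labelled flox lay above both labelled wt, but the order by number turned between labels. Number 1 was 1.49 times number 2 within labelled wt (1.44 to 1.54) and 0.798 times number 2 within labelled flox (0.778 to 0.819). The highest value was in the library labelled flox 2, which also had the highest summed level of 12 heat shock genes, 13418 CPM against 5136, 5046 and 5827 in the libraries labelled wt 1, wt 2 and flox 1. The part of the heat shock genes in the Dusp10 value was not tested. Without flox 2 the fitted log2 fold change of Dusp10 between labels was 0.40 (SE 0.28, unadjusted p = 0.21, adjusted p = 1 by edgeR).

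Dusp14, a small atypical phosphatase that lacks the kinase-docking domain of the others, followed the labels and not the number. Its level was 38.7 and 40.1 CPM under the wt label and 75.0 and 64.4 CPM under the flox label, or 39.4 ± 0.953 against 69.7 ± 7.49 (SD, n = 2). The labelled flox library was 1.93 times the labelled wt library among those numbered 1 (1.78 to 2.11) and 1.61 times among those numbered 2 (1.47 to 1.75). By number its libraries overlapped. Fabp1 and Alpi, transcripts of gut epithelium, also lay higher in both libraries labelled flox, Fabp1 with 9.53, 13.4, 34.5 and 23.0 CPM and Alpi with 16.2, 14.6, 26.5 and 29.5. Summed over the 13 tested epithelial markers the labels overlapped. Of the 13, 3 (Fabp1, Alpi and Cldn3) were separate by label, all higher in labelled flox, where 13.2% of all tested genes were. The part of epithelial RNA in the Dusp14 values was not tested.

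Spry1, an inhibitor of Ras and ERK signalling that antigen receptor signals induce in T cells, had the widest difference by number among the genes with ample counts. It had 174, 72.8, 125 and 69.9 CPM, and the libraries numbered 2 were nearly equal while those numbered 1 differed by more (149.8 ± 34.9 against 71.4 ± 2.01 CPM, SD, n = 2). The ratio of number 1 to number 2 was 2.40 within labelled wt (2.26 to 2.55) and 1.79 within labelled flox (1.68 to 1.91). Spry2 ran the other way at the limit of detection. It had 4, 16, 2 and 19 counts (0.194, 0.791, 0.0819 and 0.919 CPM), where 3 counts correspond to 0.123 to 0.148 CPM. The library numbered 2 was 4.07 times the library numbered 1 within labelled wt (1.31 to 16.7) and 11.2 times within labelled flox (2.71 to 99.3). Spry2 had 41 counts in all and reached the filter's minimum only in the libraries numbered 2, where it was high, so its direction among tested genes is no finding.

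**Figure D2:**
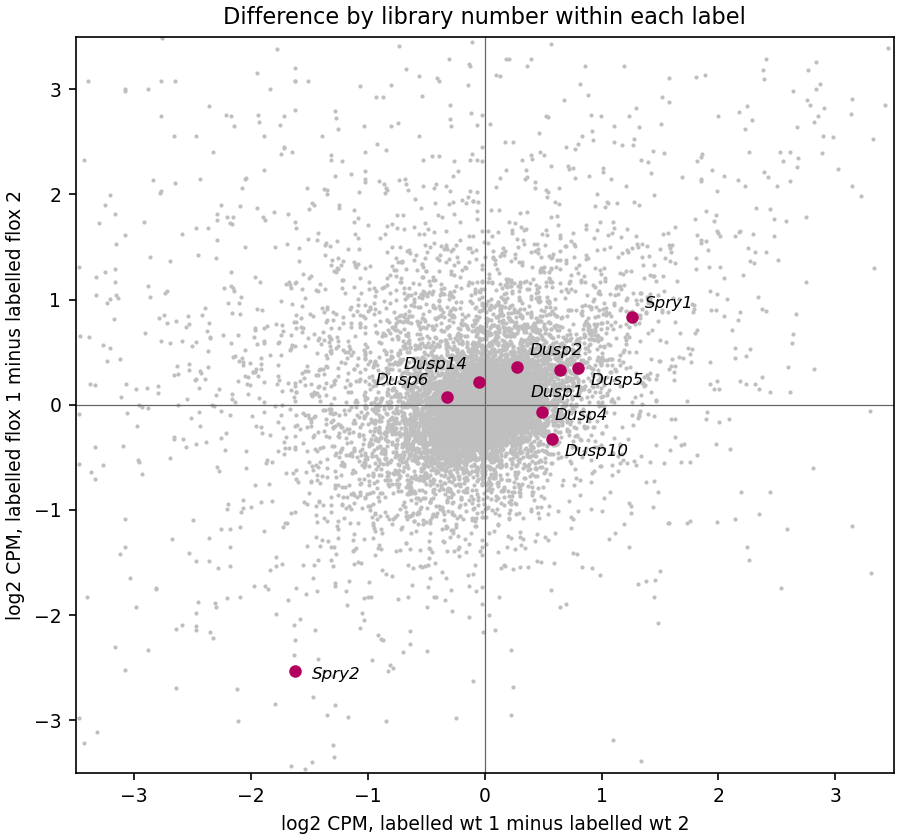
Difference in log2 CPM between the libraries numbered 1 and 2 within labelled wt (horizontal axis) and within labelled flox (vertical axis), computed with a prior count of 2; grey points are tested genes (150 lie outside the axes) and coloured points the 9 genes. Spry1, Dusp1, Dusp5 and Dusp2 lie in the upper right, Spry2 in the lower left, and Dusp4 and Dusp10 below the horizontal line.

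In all, 3 genes spanned at least 1 log2 unit over the libraries, and for these the closest patterns among 7505 other expressed genes were sought, by the root mean square difference of centred log2 CPM over the 4 libraries. Nearest to Spry1 was Plxna1, a semaphorin receptor, with 25.0, 12.1, 19.2 and 11.5 CPM (difference 0.09). Next came Lag3, an inhibitory receptor of T cells, with 67.0, 26.3, 54.3 and 28.8 CPM (0.10), and Sqrdl with 29.9, 14.5, 26.0 and 13.7 (0.11). Nearest to Dusp10 were Iigp1, an interferon-induced GTPase (31.5, 22.5, 35.4 and 41.7 CPM, difference 0.06), Traf4 (199.5, 146, 224 and 303 CPM, 0.06) and Plcxd2 (144, 99.2, 179 and 216 CPM, 0.07). For Spry2 the nearest was Nrn1, which encodes neuritin, with 14.8, 46.1, 9.26 and 39.8 CPM (0.18), and Klrb1c, also among the 3 closest, was farther off (0.46). With 4 libraries and this many candidates these are descriptions. For Spry2, with 4, 16, 2 and 19 counts and a prior count of 2 in the log2 values, nothing is read from the nearest genes.

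Of the 19 other dual-specificity phosphatases listed, all were in the table and 13 passed the filter. Of these, 1 was higher in both libraries numbered 1 and 3 in both numbered 2. Dusp8, which acts on JNK and p38, was the 1 higher in number 1, with 10.6, 7.81, 11.8 and 5.27 CPM. Over all tested genes these shares were 22.5% and 22.7%. Without the library labelled flox 2, the counts were 4 and 7 of 14, where 36.6% and 38.7% of all genes were separate. Of the 5 other Sprouty and Spred genes 3 passed the filter, of which 2 were higher in number 1 and 1 in number 2. Spred2 had 19.4, 16.0, 17.0 and 12.6 CPM and Spred1 had 21.8, 19.5, 19.9 and 12.3 CPM, and both inhibit the activation of Raf by Ras. Spry4, a further Sprouty inhibitor, was the 1 higher in number 2, with 0.438, 0.841, 0.287 and 0.532 CPM (9, 17, 7 and 11 counts), and it reached the filter's minimum only in the libraries numbered 2.

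In the cascade itself, 14 of 49 Ras and MAP kinase genes were higher in number 1 and 5 in number 2. Over all tested genes these shares were 22.5% and 22.7%. The median log2 difference of the cascade genes was 0.00. Sos1, an activator of Ras that was higher in number 1, had 49.4, 37.1, 38.2 and 23.0 CPM. Rras2 (32.6, 53.1, 34.7 and 49.3 CPM), Araf (149.8, 175, 163 and 184) and Mapk9, which encodes a JNK (111, 122, 98.7 and 115), were higher in number 2. Scaled to total gene counts, 13 cascade genes were higher in number 1 and 10 in number 2. Under that scaling 6083 of all 13022 tested genes were separate in either direction. A list of ERK-responsive output genes, which takes in the transcription factor genes Elk1, Elk3, Elk4 and Srf, had 16 tested members. Whether each responds to ERK in these cells was not tested. Of the 16, 6 were higher in number 1 and 0 in number 2, beside 22.5% and 22.7% of all tested genes. Etv1, 1 of the 6, had 14, 2, 19 and 4 counts. It reached the filter's minimum only in the libraries numbered 1, so its direction is no finding. Srf was separate by a narrow margin, with 66.5, 52.6, 60.10 and 60.07 CPM. Egr2 had 419, 223, 419.9 and 257 CPM, Egr3 had 28.6, 18.3, 35.5 and 15.9 CPM, and Myc had 475, 287, 388 and 297 CPM. Egr1, the family member most often used as an early ERK readout and named here after its values were seen, was also separate, with 379, 342, 431 and 224 CPM. Without the library labelled flox 2 the counts were 27 and 13 for the cascade. For the list of ERK-responsive output genes they were 10 and 2 of 17. Over all genes, 36.6% and 38.7% were separate in these directions.

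Immediate early genes are transcribed within minutes of a signal or of cell handling. Of 17 members, 12 were higher in both libraries numbered 1 and 0 in both numbered 2, beside 22.5% and 22.7% of all tested genes. The median log2 difference of the 17 was 0.40. Nr4a1, a marker of antigen receptor signalling, had 3934, 1784, 3782 and 1828 CPM, Fosl2 had 311, 123, 296 and 148 CPM, and Nr4a3 had 78.3, 31.2, 84.8 and 47.0 CPM. The summed level of the 17 genes was 22978, 14204, 22671 and 18050 CPM, in which the library labelled wt 2 was lowest, as it was for Dusp1, Dusp4, Dusp5 and Dusp10. The part of cell handling or of signalling in these levels was not tested. Of 12 heat shock genes, 1 was higher in number 1 and 4 in number 2, beside 22.5% and 22.7% of all tested genes. Without flox 2 the counts were 5 and 4 (36.6% and 38.7% of all genes).

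**Figure D3:**
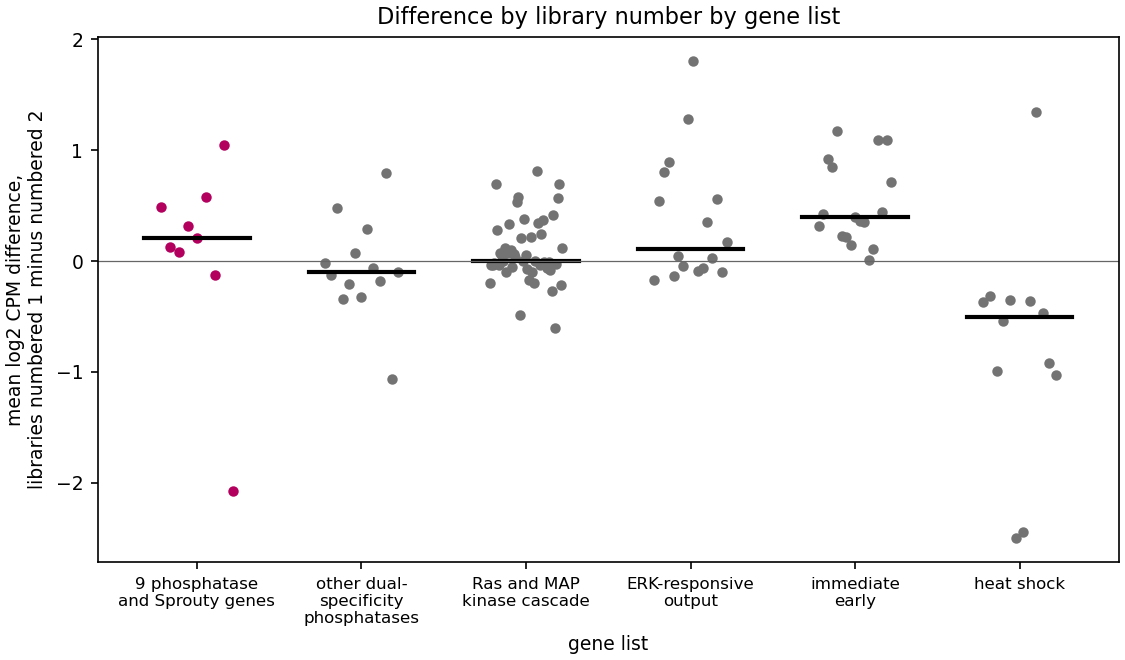
Mean of the within-label log2 CPM differences, number 1 minus number 2, for each tested gene of 6 lists; each point is a gene and each bar the list's median. The median was 0.21 for the 9 genes, 0.40 for immediate early genes and -0.51 for heat shock genes, and 0.00 for the cascade.

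Between the labelled genotypes, the comparison that the design states, 0 of the 9 genes passed edgeR's quasi-likelihood test at a Benjamini-Hochberg adjusted p under 0.05, where 0.00768% of all tested genes did. Each label held 1 library with high and 1 with low Maf, so the spread within a label, which sets the test's error, includes that split. The lack of calls therefore does not show that the labels are alike. At an unadjusted p under 0.05 there was 1 of the 9, Dusp14, against 1.98% of all genes. DESeq2 called 1 of the 9, again Dusp14, where it called 0.0922% of all genes (12 of 13022), and limma-voom called 0. Since Dusp14 was chosen by this contrast, its call is no support for a difference. Of the 8 genes not chosen by label, the one farthest from 0 relative to its error was Dusp10, at 366 ± 102 CPM in labelled wt and 545 ± 86.5 in labelled flox (SD, n = 2), a log2 fold change of 0.57 (SE 0.23, unadjusted p = 0.056, adjusted p = 1 by edgeR). Dusp10 was separate by label in all 4 libraries and Dusp14 too, both higher in labelled flox, where 13.2% of all genes were, and none of the 9 was separate in the other direction, where 13.8% were (27% in either direction).

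The other 7 genes overlapped between labels. The log2 fold change was 0.12 for Dusp1 (SE 0.25), -0.07 for Dusp2 (SE 0.17), 0.18 for Dusp4 (SE 0.18), -0.07 for Dusp5 (SE 0.30) and 0.00 for Dusp6 (SE 0.15). It was -0.34 for Spry1 (SE 0.53) and 0.00 for Spry2 (SE 1.39). For Spry1 the spread within a label, 124 ± 71.9 CPM in labelled wt and 97.5 ± 39.0 in labelled flox, exceeded the difference between labels. The largest of these errors were those of Spry2, Spry1, Dusp5 and Dusp1, all of which were separate by number within the labels. The sign of the difference turned for each of these 7 genes when some 1 library was left out. For Dusp10 and Dusp14, which were separate by label, leaving out 1 library could not turn it, so nothing is read from its staying.

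**Figure D4:**
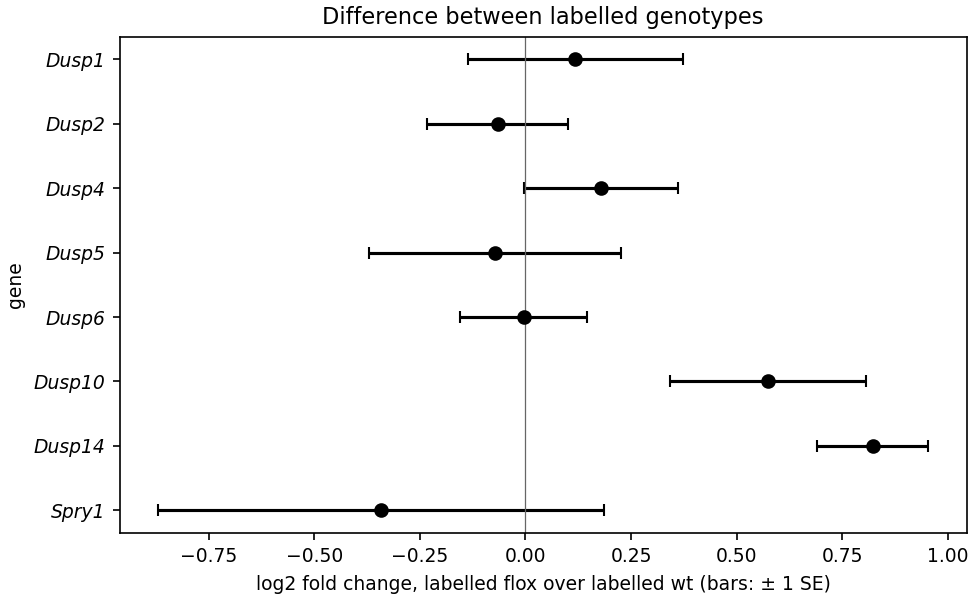
Difference between labels (flox over wt) as a log2 fold change, with bars of 1 SE from edgeR, for 8 of the 9 genes (Spry2, with an SE of 1.39, is left out). Dusp14 at 0.82 and Dusp10 at 0.57 lie to the right of the others, which lie between -0.34 and 0.18.

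The genes lie on 9 different chromosomes, with mm10 coordinates from GENCODE. Dusp1 spans 26505590 to 26562128 of chromosome 17 (minus strand) in this annotation. That span overlaps Ergic1, on the opposite strand, with which Dusp1 shares exon bases. Spry1 (chromosome 3, 37639947 to 37644598, plus strand) and Dusp5 (chromosome 19, 53529109 to 53542431, plus strand) share exon bases with unclassified or antisense transcripts of the opposite strand. No source used here states whether strand was used in counting, and for these 3 genes reads of the partner cannot be told apart if it was not. Dusp2 (chromosome 2, 127336159 to 127338376), Dusp4 (chromosome 8, 34807297 to 34819894), Dusp6 (chromosome 10, 99263231 to 99267489) and Dusp10 (chromosome 1, 184013302 to 184075636) lie on the plus strand. Dusp14 (chromosome 11, 84048041 to 84069261) and Spry2 (chromosome 14, 105891947 to 105896819) lie on the minus strand. None of these 6 shares exon bases with another gene.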

How the data were processed

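Libraries were made from the RNA of 4 sorted samples with a low-input mRNA kit, per the labels' protocols. TopHat2 2.1.1, HTSeq 0.6.1, edgeR 3.14 and mm10 were used, per the submitters' processing notes; no source used here gives their settings or the annotation. The files deposited by the authors hold raw counts per gene, whose 5 counter summary rows (66.6% to 67.2% of column totals) were set aside, and a normalized signal for 10618 genes (8 of the 9 described), which was only compared.

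Groups and numbers come from the titles; the labels' replicate field goes with genotype and was disregarded. Counts were fitted in R 4.3.3 with edgeR 4.0.16 (filterByExpr, TMM, robust glmQLFit, glmQLFTest, Benjamini-Hochberg over 13022 genes), where the SE is the log2 fold change over the root of F. Ratios have exact binomial intervals (95%), which cover counting error only. With 2 against 2 libraries an exact two-sided permutation test cannot go below p = 0.333, and none was run. Levels per kilobase use the union of GENCODE M21 exons. Separate means that both libraries of 1 group lay above both of the other.

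The genes and lists were chosen with earlier results of these data known. Named are the 9 genes, Maf, Il10 and Foxp3, up to 3 genes per pathway list and direction (separate by number, mean log2 CPM of at least 3, largest smaller within-label difference) and the 3 closest patterns; some genes that this rule picks are not reported here, and other names were chosen after their values were seen. Alternatives were other scalings, no filter, DESeq2 1.42.0, limma-voom (limma 3.58.1), a block by number and fits without each library in turn.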

Additional observations from a re-analysis of the deposited data

Results flagged for a closer look

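Dusp4 and Dusp10 differed by library number in opposite directions within the 2 labels, with counting intervals that excluded 1 on both sides. For Dusp4 the ratio of number 1 to number 2 was 1.40 within labelled wt (1.36 to 1.44) and 0.954 within labelled flox (0.931 to 0.978). For Dusp10 it was 1.49 within labelled wt (1.44 to 1.54) and 0.798 within labelled flox (0.778 to 0.819). Each ratio rests on 1 library a side, so the difference between labels was not tested.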

How the results depend on the processing

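The replicate block by title number left 0 of the 9 genes and 1 of all genes called between labels. Deviations of same-numbered libraries from their label mean correlated at 0.264 across genes, which are not independent replicates; no label says that a number marks a shared batch, so the number was not taken to pair the samples, although Maf and the grouping of the deposited normalized table follow it. Called genes numbered 12 with DESeq2, 2 without the filter, 0 with limma-voom (262 at an unadjusted p under 0.05) and 0 whichever library was left out. DESeq2 called 1 of the 9, Dusp14; every other setting called 0.

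Differences near 0 turned sign. For Dusp6 the log2 fold change between labels was 3.26e-05 with RLE size factors, 9.98e-05 with DESeq2, 0.0061 with limma-voom and 0.0042 with the replicate block. For Spry2 it was -0.043 scaled to total counts, -0.52 with limma-voom and -0.29 with the block. Leaving out 1 library in turn gave -0.16 to 0.47 for Dusp1, -0.25 to 0.10 for Dusp2, -0.038 to 0.44 for Dusp4, -0.41 to 0.38 for Dusp5, -0.16 to 0.17 for Dusp6, -0.83 to 0.42 for Spry1 and -2.51 to 1.33 for Spry2. With 1 library in a label, it is assumed to vary like the others.

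The 5 genes separate by number stayed 5 under both other scalings and without the filter. Over all genes it was 5872 of 13022 with RLE size factors, 6083 of 13022 scaled to total counts and 7061 of 18575 without the filter. With 1 library left out the count was 6 without either library labelled wt and 8 without either labelled flox. Since 3 libraries separate more easily, many genes did so. Of all tested genes, 9446 of 13565 were separate without wt 1 and 10131 of 13530 without wt 2. Without flox 1 it was 9386 of 13401, and without flox 2 it was 10214 of 13575. Chosen after seeing the data, the pathway lists without flox 2 had 17 of 17 immediate early genes higher in number 1, beside 36.6% of all tested genes. Number 2 was then the library labelled wt 2 alone, where the summed level of these genes was lowest. With every library kept, 12 of 17 were higher in number 1, beside 22.5% of all tested genes. At 2 to 19 counts, depth limits Spry2.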
